A study of Mus musculus with 10 samples.

Results

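Interferon-stimulated and antigen-processing genes were followed in the livers of mice lacking the thyroid hormone receptor beta gene, Thrb, in hepatocytes. The set holds 48 genes, taken from a list of symbols mapped to the Ensembl gene identifiers of the count tables, out of 55401 genes in those tables. All 48 members passed the filter on low counts, so none had to be set aside, and 12234 genes were tested in all.

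The mRNA of whole liver was sequenced in 5 wild-type (WT) littermates and in 5 mice with Thrb deletion in the liver (Thrb hep-/-), with 1 library per mouse. The sample titles of both genotypes named the C57Bl6/J strain, which the strain label spells differently. Both genotypes were housed on standard chow and received no treatment. In the study's list of mouse models, Thrb hep-/- mice came from a cross of Thrb-loxP/loxP mice with Afp-Cre mice, so that the recombinase follows the alpha-fetoprotein promoter, which is active in the hepatoblasts of the fetal liver. Whether the WT littermates carried the floxed allele or Cre is not stated in the sources used here, nor are the sex, age and time of collection of these mice. Levels are CPM, the counts of a gene relative to its library total on a common scale, with library totals adjusted by the TMM method. A gene was called when its adjusted p in the edgeR quasi-likelihood test with Benjamini-Hochberg adjustment was below 0.15.

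Cells sense viral nucleic acids with receptors such as RIG-I and MDA5, and secrete interferons in response. Type I interferons act through the receptor IFNAR and the kinases JAK1 and TYK2 to switch on genes that carry interferon-stimulated response elements (ISRE), to which the DNA-binding protein IRF9 directs a complex that includes STAT2, whereas interferon gamma acts on genes with gamma-activated sites (GAS). The genes induced encode sensors that feed back on the pathway, enzymes and restriction factors that block viral replication, GTPases that attack the vacuoles of intracellular pathogens, and the machinery that cuts peptides and loads them on MHC class I. In the liver, hepatocytes, macrophages and endothelial cells all express such genes, some of them at a low tonic level without infection.

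Promoter sequences are shown first because the ISRE is the DNA element through which type I interferons switch on genes, as described above. RefSeq windows on GRCm38.p6, from 250 bases before to 50 bases after each transcription start, were matched by symbol for 35 of the 48 members. Dhx58, Gbp4, Ifi27, Iigp1, Mx1, Mx2, Nlrc5, Oas2, Parp14, Rtp4, Tap2, Usp18 and Zbp1 had none in the table. The ISRE core was searched on both strands as GAAANNGAAA, without allowing any mismatch, so that variants of the element were not counted. It was found in 20 of the 35 members (57.1%), against 3.99% of the 27025 genes with a window. The stretches of 30 bases below are those around the core match nearest to the start in the 6 members with the smallest and the 4 members with the largest unadjusted p among the 20, a choice made after their values were seen. The capitals mark the match, and a match on the opposite strand reads as its reverse complement.
Ddx58, chr4:40239804-40239833, minus strand: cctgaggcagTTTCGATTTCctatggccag
Irgm1, chr11:48871425-48871454, minus strand: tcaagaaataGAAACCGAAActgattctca
Stat2, chr10:128270266-128270295, plus strand: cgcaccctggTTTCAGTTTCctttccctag
Ifitm3, chr7:141010723-141010752, minus strand: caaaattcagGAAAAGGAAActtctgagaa
Ifih1, chr2:62646206-62646235, minus strand: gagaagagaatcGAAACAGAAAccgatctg
Eif2ak2, chr17:78882535-78882564, minus strand: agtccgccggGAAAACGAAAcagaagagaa
Cxcl10, chr5:92349083-92349112, minus strand: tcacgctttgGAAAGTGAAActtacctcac
Rsad2, chr12:26456553-26456582, minus strand: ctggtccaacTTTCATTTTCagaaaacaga
Bst2, chr8:71537577-71537606, minus strand: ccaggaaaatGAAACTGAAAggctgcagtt
Tgtp1, chr11:48992304-48992333, minus strand: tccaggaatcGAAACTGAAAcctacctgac

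The GAS core was searched as TTCNNNGAA, also without mismatch, and occurred in 13 of the 35 members (37.1%), against 9.55% of all genes. The thyroid hormone response element was searched as a direct repeat of AGGTCA spaced by 4 bases, spelled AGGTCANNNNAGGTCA on both strands, without allowing any mismatch. It occurred in 0 of the 35 members and in 4 of the 27025 genes (0.0148%), so these letters were rare in windows of this length. A match describes the letters and not binding, and the windows say nothing of distal elements. For the called members with a window, the 250 bases upstream of the start are given below in lower case, since none of the 3 stretches held a match to the ISRE or GAS core. The only match in the full windows of these 3 genes was the Ddx58 stretch above, which begins 3 bases into the transcribed sequence.
Ddx58, chr4:40239826-40240075, minus strand: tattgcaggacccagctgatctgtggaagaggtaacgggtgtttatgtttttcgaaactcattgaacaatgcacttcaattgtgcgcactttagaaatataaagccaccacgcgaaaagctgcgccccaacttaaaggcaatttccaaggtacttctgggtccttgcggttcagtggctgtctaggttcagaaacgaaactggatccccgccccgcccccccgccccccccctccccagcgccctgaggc
Xaf1, chr11:72301379-72301628, plus strand: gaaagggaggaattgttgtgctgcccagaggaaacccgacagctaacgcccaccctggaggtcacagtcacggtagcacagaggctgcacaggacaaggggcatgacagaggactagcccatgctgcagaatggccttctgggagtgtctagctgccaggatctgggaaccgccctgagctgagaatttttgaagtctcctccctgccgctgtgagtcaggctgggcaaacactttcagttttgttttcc
Oasl1, chr5:114922990-114923239, plus strand: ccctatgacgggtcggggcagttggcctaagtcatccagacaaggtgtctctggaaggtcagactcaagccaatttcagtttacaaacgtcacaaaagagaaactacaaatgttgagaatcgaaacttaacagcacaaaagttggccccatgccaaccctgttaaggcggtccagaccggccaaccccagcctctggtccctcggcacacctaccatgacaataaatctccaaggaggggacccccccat

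Depth was even, with total counts between 26477195 and 28590704 per library, at which 3 counts equal 0.105 to 0.113 CPM. Thrb itself fell by 0.32 on the log2 scale (SE 0.067, adjusted p = 0.0359, edgeR), with 24.9 to 28.8 CPM across the deleted mice and 32.5 to 34.2 CPM across the WT mice, which did not overlap. The remaining Thrb reads were not resolved by exon, so this level does not measure the deleted part alone. The hepatocyte markers Alb, Apoa1, Ttr, Cps1, Cyp2e1 and Hnf4a were abundant in every library, as the tissue label says. In bulk liver, fewer cells of a type and less RNA per cell cannot be told apart.

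The members were lower in Thrb hep-/- livers in 43 of 48 cases by the sign of the fitted change, whereas 49.9% of all genes tested were fitted lower. Their median log2 fold change was -0.31, beside 0.00 for all genes tested. Most of these shifts did not pass the test. Ddx58, Xaf1, Parp14 and Oasl1 fell, and no member rose. The 4 calls amount to 8.33% of the members, where 4.08% of all genes were called in either direction, 2.57% lower and 1.51% higher. At an adjusted p of 0.05, which 1.35% of all genes passed, 1 member was called, Ddx58. An unadjusted p below 0.05 with a lower level was reached by 14 of the 48 members, against 7.41% of all genes, and with a higher level by 0 members, against 6.15% of all genes. Without the 4 called genes, the median of the other 44 was -0.28, and 88.6% of them were fitted lower. The fitted changes ran from -0.81 for Oasl1 to 0.12 for Cxcl10, as the plot by role shows.

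**Figure D1:**
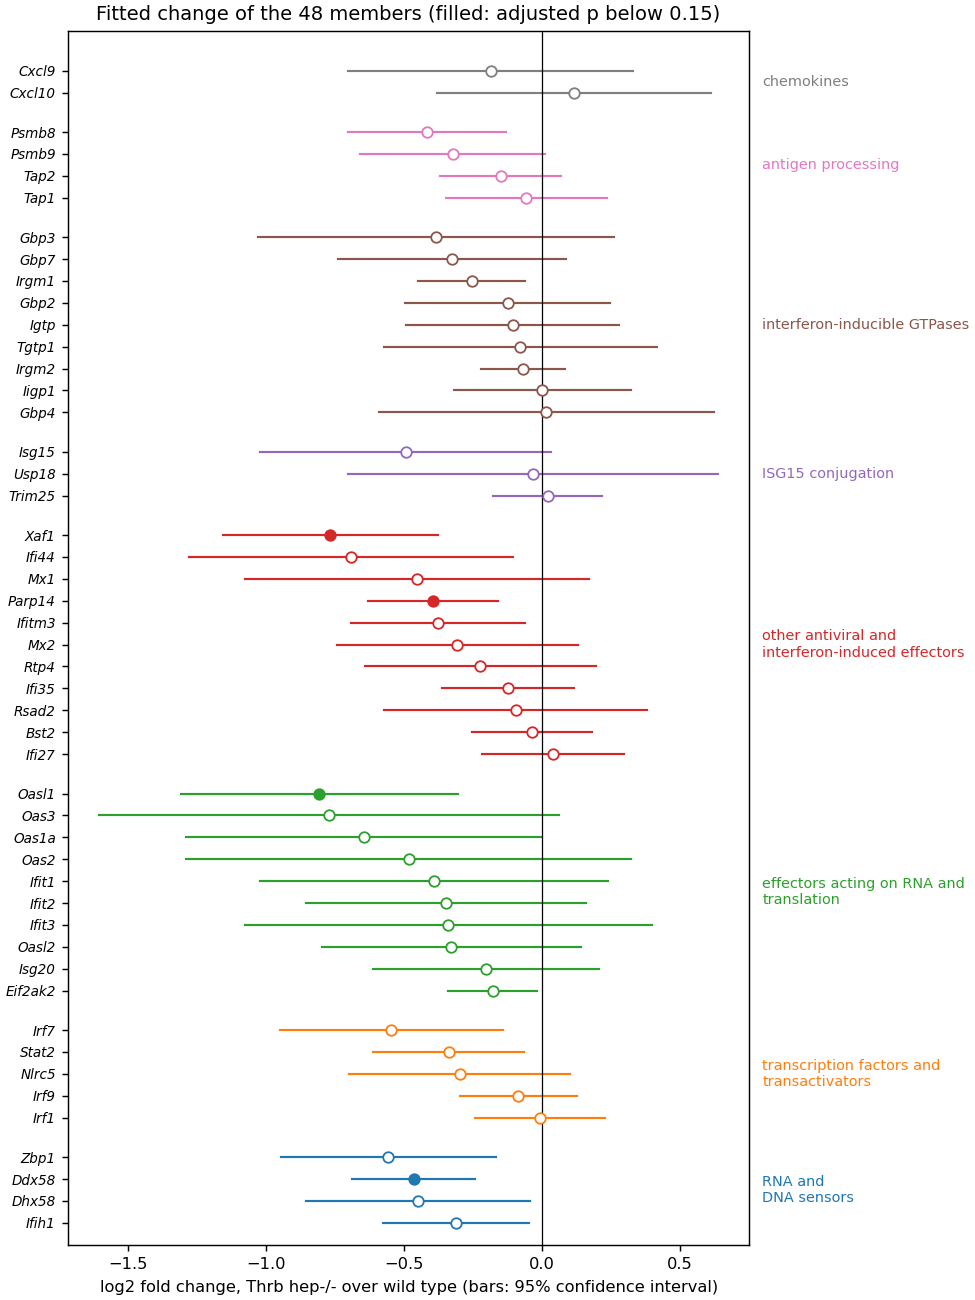
Fitted log2 fold change (x axis, Thrb hep-/- over WT) of each of the 48 members (y axis), grouped by role, with 95% confidence intervals as bars. Filled points are the 4 members with an adjusted p below 0.15, and 43 of the 48 points lie left of 0.

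Among the nucleic acid sensors, all 4 members were fitted lower, with a median of -0.46, and Ddx58 was called. Ddx58 encodes RIG-I, the cytosolic sensor of short double-stranded and 5'-triphosphate RNA, and lies on chromosome 4 at 40203773-40239828 of GRCm38, minus strand. Its level in the WT mice 1 to 5 was 31.4, 35.1, 35.2, 28.4 and 41.8 CPM. In the Thrb hep-/- mice 1 to 5 it was 25.5, 23.9, 24.5, 22.4 and 28.2 CPM. The lowest WT mouse and the highest Thrb hep-/- mouse nearly touched, but the genotypes did not overlap. The log2 fold change of Ddx58 was -0.47 (SE 0.10, adjusted p = 0.0489, edgeR), a level 27.6% lower. Ddx58 was called in all 18 alternative settings, including the 10 that each left out 1 mouse, with adjusted p between 0.00399 and 0.128.

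The other sensors did not pass the threshold. Zbp1, a receptor of Z-form nucleic acids, had a log2 fold change of -0.56 (adjusted p = 0.179, edgeR), with 8.54 ± 2.19 CPM in WT and 5.80 ± 1.09 CPM in Thrb hep-/- livers (SD, n = 5 each). Dhx58, which encodes the regulatory helicase LGP2, was at -0.45 and Ifih1, which encodes MDA5, the sensor of long double-stranded RNA, at -0.31. Each of these 3 genes had an unadjusted p below 0.05, so that the 4 sensors were all among the 14 members that reached it.

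**Figure D2:**
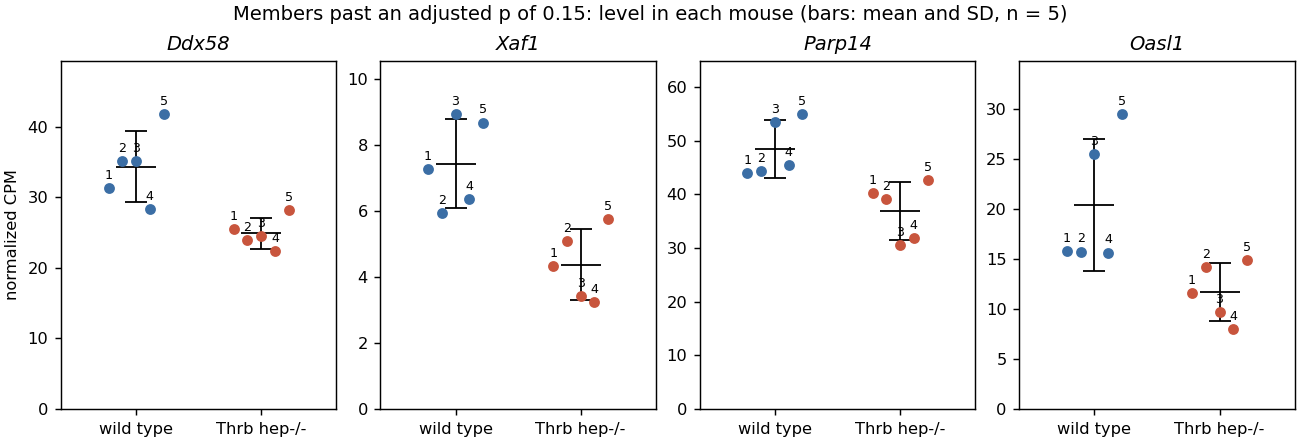
Normalized CPM (y axis, from 0) of the 4 called members in each mouse, with the mouse number above each point and the mean and SD of 5 mice as bars. In each panel every Thrb hep-/- mouse lies below every WT mouse, and the gap is narrow for Ddx58, Xaf1, Parp14 and Oasl1 alike.

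The transcription factors that carry the interferon signal showed no called change, though all 5 were fitted lower, with a median of -0.30. Irf7, the factor that amplifies type I interferon production, had the smallest p of the group. Its level was 39.1, 45.0, 65.4, 48.3 and 58.9 CPM in WT mice 1 to 5. It was 30.5, 49.0, 26.0, 30.4 and 39.9 CPM in Thrb hep-/- mice 1 to 5, so that Thrb hep-/- mouse 2 lay inside the WT range. The log2 fold change of Irf7 was -0.55 (SE 0.18, adjusted p = 0.213, edgeR). Stat2 was at -0.34 with an unadjusted p of 0.0195 in edgeR, and Nlrc5, the transactivator of MHC class I genes, was at -0.30. Irf9, the DNA-binding partner of STAT2, was at -0.09 and Irf1, which acts mainly downstream of interferon gamma, at -0.01. The 95% intervals ran from -0.30 to 0.13 for Irf9 and from -0.24 to 0.23 for Irf1.

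All 10 effectors that act on RNA or translation were fitted lower, with a median of -0.37, and Oasl1 was called. Oasl1 belongs to the oligoadenylate synthetase family but lacks the enzyme activity, and is known to restrain Irf7 translation. It lies on chromosome 5 at 114923240-114937915, plus strand. The WT mice 1 to 5 had 15.8, 15.8, 25.6, 15.7 and 29.5 CPM of Oasl1. The Thrb hep-/- mice 1 to 5 had 11.6, 14.2, 9.71, 8.04 and 14.96 CPM. The genotypes did not overlap, although 3 WT mice lay close to the highest Thrb hep-/- mouse, and WT mice 3 and 5 stood above the other WT mice. The log2 fold change of Oasl1 was -0.81 (SE 0.23, adjusted p = 0.127, edgeR), a level 42.8% lower. The call was lost when WT mouse 2, 3 or 5 or Thrb hep-/- mouse 1, 3 or 4 was left out, with adjusted p up to 0.289, and without the filter on low counts.

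Among the other genes of this group, the enzymes Oas1a, Oas2 and Oas3 make the 2-5A messenger that activates RNase L, and their log2 fold changes were -0.64, -0.48 and -0.77. None of these 3 passed the test, and their intervals were wide, reaching from -1.60 to 0.06 for Oas3. Oas3 was the least expressed member per length, at 0.215 CPM per kb of exon in WT and 0.127 in Thrb hep-/- livers. The Ifit genes, whose products bind viral RNA, were at -0.39 for Ifit1, -0.35 for Ifit2 and -0.34 for Ifit3. Oasl2 was at -0.33 and Isg20, an exonuclease, at -0.20. Eif2ak2, which encodes the kinase PKR that halts translation, had the smallest change of the group, at -0.18, but among the tightest spread, with 17.0 ± 1.05 CPM in WT and 15.1 ± 0.895 CPM in Thrb hep-/- livers (SD, n = 5 each). Its adjusted p was 0.321 in edgeR. Oas1a and Ifit3 have close paralogs, Oas1g and Ifit3b, so reads that fit both copies were not counted and these values are less certain.

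Of the 11 other antiviral and interferon-induced effectors, 10 were fitted lower and 2 were called, Xaf1 and Parp14. Xaf1, an antagonist of the apoptosis inhibitor XIAP, lies on chromosome 11 at 72301629-72313733, plus strand. Its level was 7.27, 5.94, 8.94, 6.37 and 8.68 CPM in WT mice 1 to 5. In Thrb hep-/- mice 1 to 5 it was 4.34, 5.10, 3.43, 3.24 and 5.76 CPM. The genotypes were apart by little, since Thrb hep-/- mouse 5 came close to WT mouse 2. The log2 fold change of Xaf1 was -0.77 (SE 0.18, adjusted p = 0.0627, edgeR), a level 41.2% lower. It was called in 17 of the 18 alternative settings and lost when Thrb hep-/- mouse 3 was left out (adjusted p = 0.157).

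Parp14, a mono-ADP-ribosyltransferase with antiviral activity, lies on chromosome 16 at 35832874-35871544, minus strand. The WT mice 1 to 5 had 44.0, 44.3, 53.5, 45.5 and 54.9 CPM. The Thrb hep-/- mice 1 to 5 had 40.3, 39.1, 30.6, 31.9 and 42.6 CPM. The genotypes did not overlap, with WT mouse 1 and Thrb hep-/- mouse 5 nearest to each other. The log2 fold change of Parp14 was -0.39 (SE 0.11, adjusted p = 0.105, edgeR), a level 23.9% lower. Leaving out WT mouse 2, 3 or 5 or Thrb hep-/- mouse 3 or 4 ended the call, with adjusted p up to 0.247, as did the replicate block (adjusted p = 0.175).

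Complete separation of the genotypes with lower levels in Thrb hep-/- livers was seen in these 4 members only, and in 2.26% of all genes tested. Ifi44, a gene induced by type I interferon, was at -0.69 with an interval from -1.28 to -0.10, and Ifitm3, which blocks viral entry at the endosome, at -0.38, both with an unadjusted p below 0.05 and neither called. Ifitm3 was the most expressed member per length, at 568 CPM per kb in WT and 437 in Thrb hep-/- livers. Bst2, which encodes the tether that retains budding virions, had a change of -0.04 and Rsad2, which encodes viperin, of -0.10. Rtp4 was at -0.22 and Ifi35 at -0.12, and Ifi27 was fitted higher, at 0.04, without passing the test. Mx1 and Mx2, of a family of dynamin-like GTPases whose alleles are defective in many laboratory mouse strains, were at -0.45 and -0.31 without passing the test.

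The ubiquitin-like modifier Isg15 had the smallest p of the 3 genes of ISG15 conjugation. Its level was 10.1, 8.85, 14.6, 11.1 and 15.6 CPM in WT mice 1 to 5, and 7.05, 12.7, 6.07, 5.96 and 11.0 CPM in the Thrb hep-/- mice. The groups overlapped, and the log2 fold change of -0.49 had an adjusted p of 0.401 in edgeR. Usp18, the protease that removes ISG15 and dampens IFNAR signalling, was at -0.03, with an interval from -0.70 to 0.64. Trim25, an E3 ligase that activates RIG-I, was at 0.02, within an interval from -0.18 to 0.22.

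The GTPases that act on pathogen vacuoles had a median of -0.11. Of 9 members, 7 were fitted lower and none was called. Irgm1, a regulator of the immunity-related GTPases, had the smallest p. Its level was 54.2, 53.2, 68.6, 57.1 and 64.8 CPM in WT mice 1 to 5, and 50.6, 54.4, 43.4, 50.4 and 51.1 CPM in the Thrb hep-/- mice. Only Thrb hep-/- mouse 2 reached into the WT range, and the log2 fold change was -0.25 (adjusted p = 0.224, edgeR). Iigp1 was the most abundant GTPase, at 301 ± 63.3 CPM in WT and 302 ± 44.1 CPM in Thrb hep-/- livers (SD, n = 5 each), with a fitted change of 0.00. Gbp3 and Gbp7 were at -0.38 and -0.33, whereas Gbp2 was at -0.12 and Gbp4 at 0.02. Irgm2 and Igtp, which share 162 exon bases, were at -0.07 and -0.11. Tgtp1 has a near-identical copy, Tgtp2, and its value of -0.08 is therefore uncertain.

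All 4 antigen-processing members were fitted lower and none was called. Psmb8 and Psmb9 encode catalytic subunits that replace Psmb5 and Psmb6 in the immunoproteasome, and Tap1 and Tap2 form the transporter that carries peptides into the endoplasmic reticulum. Psmb8 had 10.1, 11.4, 12.8, 11.4 and 12.9 CPM in WT mice 1 to 5, and 8.68, 10.6, 6.96, 7.25 and 10.4 CPM in the Thrb hep-/- mice. Thrb hep-/- mice 2 and 5 lay within the WT range, and the log2 fold change was -0.42 (SE 0.13, adjusted p = 0.170, edgeR). Psmb8 shares 498 of its 3381 exon bases with the gene model Gm20496, and reads there were not counted for either. Psmb9 was at -0.32, Tap2 at -0.15 and Tap1 at -0.06.

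The chemokines Cxcl9 and Cxcl10, ligands of the chemokine receptor CXCR3 on T cells, did not shift together. Cxcl9 was at 4.69, 9.86, 8.08, 9.77 and 6.55 CPM in WT mice 1 to 5, and 4.76, 10.2, 5.32, 6.99 and 7.04 CPM in the Thrb hep-/- mice. These ranges nearly coincided, and the log2 fold change was -0.19 (adjusted p = 0.799, edgeR). Cxcl10 had a fitted change of 0.12, the highest of all members, with an interval from -0.38 to 0.61.

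As a description of the proteasome, the level per length of each inducible subunit was set against its constitutive counterpart. Length here was all annotated exon bases, 3381 for Psmb8 and 899 for Psmb5, so the percentages depend on the annotation. Without division by length, Psmb8 was at 11.7 CPM and Psmb5 at 47.9 CPM in WT. Psmb8 was 6.58 ± 1.09% of Psmb5 in WT and 4.64 ± 1.01% in Thrb hep-/- livers (SD, n = 5 each). Psmb9 was 9.93 ± 2.57% of Psmb6 in WT and 7.45 ± 1.63% in Thrb hep-/- livers. Psmb10, which is not a member, was 98.6 ± 13.4% of Psmb7 in WT and 90.5 ± 14.6% in Thrb hep-/- livers. Psmb5, Psmb6 and Psmb7 themselves were not called, at 0.09, 0.08 and -0.04.

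Members varied together from mouse to mouse within each genotype. WT mice 3 and 5 held the highest WT level of 43 of the 48 members, whereas they held the highest of the WT group in 42.9% of all genes. In the Thrb hep-/- group, mice 3 and 4 held the lowest level in 38 members, against 37.2% of all genes, and mice 2 and 5 the highest in 40 members, against 42.4% of all genes. Mice 3 and 4 were the 2 lowest of the Thrb hep-/- group in 26 members, against 15.2% of all genes. The mean log2 CPM over the 48 members was 3.58, 3.64, 4.09, 3.70 and 4.03 in WT mice 1 to 5, and 3.49, 3.84, 3.25, 3.28 and 3.71 in the Thrb hep-/- mice. Thrb hep-/- mice 2 and 5 thus lay above WT mice 1, 2 and 4, and the genotypes overlapped on this scale.

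**Figure D3:**
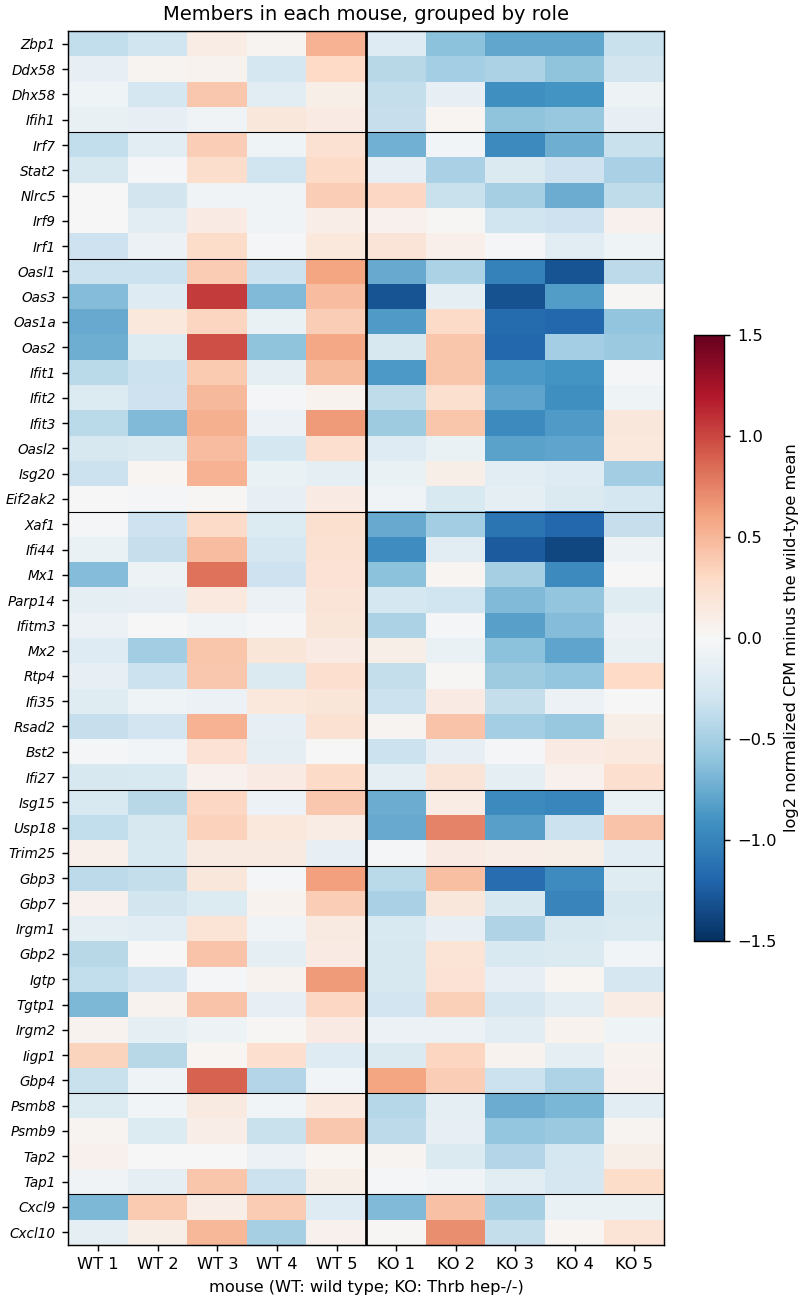
Log2 normalized CPM of each member (rows, grouped by role) in each of the 10 mice (columns; WT for wild type, KO for Thrb hep-/-), minus the mean of the 5 WT mice, with blue below and red above that mean. The columns of KO mice 3 and 4 are blue in most rows, and those of WT mice 3 and 5 are red in most rows.

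The number of called members depended on which mice were included. It was 4 with all 10 mice, 1 without Thrb hep-/- mouse 3 and 2 without Thrb hep-/- mouse 4. Leaving out WT mouse 2, 3 or 5 also gave 2 calls, Ddx58 and Xaf1. Without WT mouse 1 there were 7 calls, with Irf7, Psmb8 and Zbp1 added. The highest number, 9, came without Thrb hep-/- mouse 2, and added Irf7, Psmb8, Ifih1, Ifitm3 and Oas1a. The calls over all genes moved as well. They numbered 499 with all 10 mice, 222 and 346 without Thrb hep-/- mouse 3 or 4, and 611 without mouse 2. The most, 665, came without Thrb hep-/- mouse 1, where 5 members were called. Without WT mouse 1, 2, 3 or 5 they numbered 485, 227, 409 and 239. Across these 10 fits, in which 47 or 48 members passed the filter, the median of the members stayed below 0, between -0.35 without Thrb hep-/- mouse 2 and -0.19 without WT mouse 3.

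**Figure D4:**
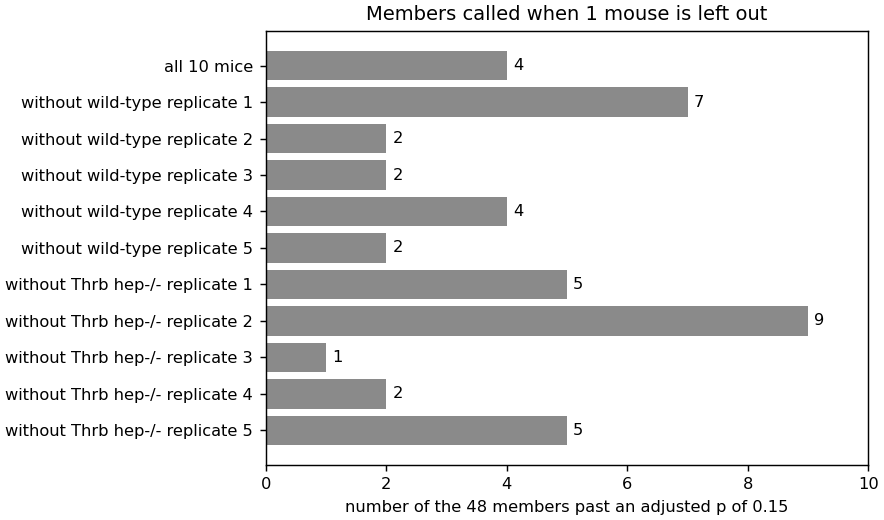
Number of the 48 members with an adjusted p below 0.15 (x axis) with all 10 mice and with each mouse left out in turn (y axis). The count is 4 with all mice and ranges from 1 without Thrb hep-/- mouse 3 to 9 without Thrb hep-/- mouse 2. Over all genes the calls in these fits numbered 499, 222 and 611, and the most, 665, came without Thrb hep-/- mouse 1.

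Called members were found both with and without an exact match to the ISRE core in the window. Members with an ISRE core in the window were fitted lower in 19 of 20 cases, with 1 call and a median log2 fold change of -0.32. Those without were fitted lower in 14 of 15 cases, with 2 calls and a median of -0.32. Xaf1 and Oasl1 had no exact match to the ISRE core in the window, though variants of the element were not searched. Rsad2, Bst2, Tgtp1 and Cxcl10 had a match and changes between -0.10 and 0.12. The 13 members with a GAS core had a median of -0.18 and no call, and the 22 without had a median of -0.33 and 3 calls. The difference between these groups was not tested.

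The rest of the pathway was counted over a list of 108 further genes, of which 84 passed the filter. Of these, 61 were fitted lower and 23 higher, with a median of -0.09, 4 fell and 1 rose, where 4.08% of all genes were called. These 5 calls became 1 without WT mouse 2 or 5 or Thrb hep-/- mouse 4, 3 without Thrb hep-/- mouse 3, 8 without Thrb hep-/- mouse 1 and 9 without Thrb hep-/- mouse 2. The 10 interferon ligand genes, from the alpha, beta, gamma, lambda, kappa and epsilon families, were all under the filter, with at most 2 counts in any library. The receptors and kinases showed no call among 8 tested genes, and Ifnar1, Ifnar2, Ifngr1 and Ifngr2 ran from -0.10 to 0.10. The sensing adaptors Mavs, Sting1, Myd88 and Ticam1, and the kinase Tbk1, were not called, and none of the 9 tested genes of that list was.

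Irf5, a factor acting downstream of Toll-like receptors, fell in Thrb hep-/- livers. Its level was 23.8, 24.3, 20.9, 21.2 and 19.2 CPM in WT mice 1 to 5, and 8.89, 13.2, 10.4, 11.6 and 7.82 CPM in the Thrb hep-/- mice. The genotypes were well apart, and the log2 fold change was -1.08 (SE 0.13, adjusted p = 0.00186, edgeR). Irf5 shares 411 exon bases with Tnpo3, and the mouse-to-mouse order of Irf5 was not that of the members, since WT mouse 5 held the lowest WT level. A further 3 interferon-stimulated genes fell among 39 tested, where 2.57% of all genes were called lower. Of the 39, 32 were fitted lower, against 49.9% of all genes. Herc6, the mouse ligase for ISG15, was at -0.67 (adjusted p = 0.103, edgeR), Parp12 at -0.34 (adjusted p = 0.127) and Adar, which edits double-stranded RNA, at -0.28 (adjusted p = 0.0766).

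Of the genes of class II presentation, 1 of 6 tested was called, and it rose, where 1.51% of all genes were called higher and 4.08% in either direction. H2-Ab1, a chain of the MHC class II dimer, rose by 0.74 on the log2 scale (SE 0.20, adjusted p = 0.112, edgeR), and ranged over 16.1 to 28.9 CPM after deletion, beside 9.17 to 19.1 CPM in the WT group. All 6 tested class II genes were fitted higher, with a median of 0.60, whereas 49.9% of all genes were fitted lower. None of the 6 separated the genotypes. H2-Aa was at 0.67 (adjusted p = 0.177) and H2-Eb1 at 0.72 (adjusted p = 0.213), and the summed level was 71.7 ± 21.9 CPM in WT and 109 ± 29.1 CPM in Thrb hep-/- livers (SD, n = 5 each). On the class I side, B2m was at -0.01 and Tapbp at -0.25, and none of the 10 further antigen-processing genes was called.

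Markers of other liver cells were read in the same livers. All 8 Kupffer cell and macrophage markers were fitted lower, with a median of -0.72 and 0 called, and none was at 0. Their summed level was 118, 362, 399, 264 and 447 CPM in WT mice 1 to 5, and 174, 280, 135, 195 and 234 CPM in the Thrb hep-/- mice. For the markers and the mean of the members alike, WT mice 3 and 5 were highest and mouse 1 lowest of their group. Thrb hep-/- mouse 2 was the highest, mouse 5 the next and mouse 3 the lowest of their group for both. Thrb hep-/- mice 1 and 4 changed places, and the WT orders differed in part. WT mouse 1 lay below every Thrb hep-/- mouse for the markers, but its member mean of 3.58 lay above Thrb hep-/- mice 1, 3 and 4. WT mouse 2 had 362 CPM of the markers but a member mean of 3.64, below WT mice 3, 4 and 5. The neutrophil gene S100a8 fell by 2.67 on the log2 scale (adjusted p = 0.134, edgeR), where 2.57% of all genes were called lower. Its level was low, at 1.67, 6.01, 5.15, 0.664 and 1.09 CPM in WT mice 1 to 5. In the Thrb hep-/- mice it was 1.08, 0.562, 0.412, 0.0993 and 0.142 CPM, and the genotypes overlapped. The other 3 neutrophil markers were under the filter. The markers of T and NK cells, B cells and plasmacytoid dendritic cells were all under the filter, with summed levels of at most 2.64, 3.08 and 1.13 CPM in any mouse. Endothelial and stellate markers were fitted higher in 4 of 5 and 5 of 5 genes, with 0 called, and of 4 cholangiocyte markers 2 passed the filter, with 0 called.

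Acute-phase genes, which hepatocytes induce in inflammation, were lower to a larger extent. Of 21 tested, 20 were fitted lower and 14 fell, where 49.9% of all genes were fitted lower and 2.57% were called lower. The 1 gene fitted higher was at 0.81 and was not called. Their summed level was 25570 to 42140 CPM after deletion, beside 37820 to 87270 CPM in the WT group. Here WT mouse 3, which held the highest level of many members, was the lowest of the WT group. WT mouse 2 and Thrb hep-/- mouse 1 were the highest of their groups here but not for the mean of the members. Thrb hep-/- mice 3 and 4, at 27110 and 25570 CPM, were the lowest of their group here as for that mean. The part of macrophage content and of inflammation in the members' levels was not tested.

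**Figure D5:**
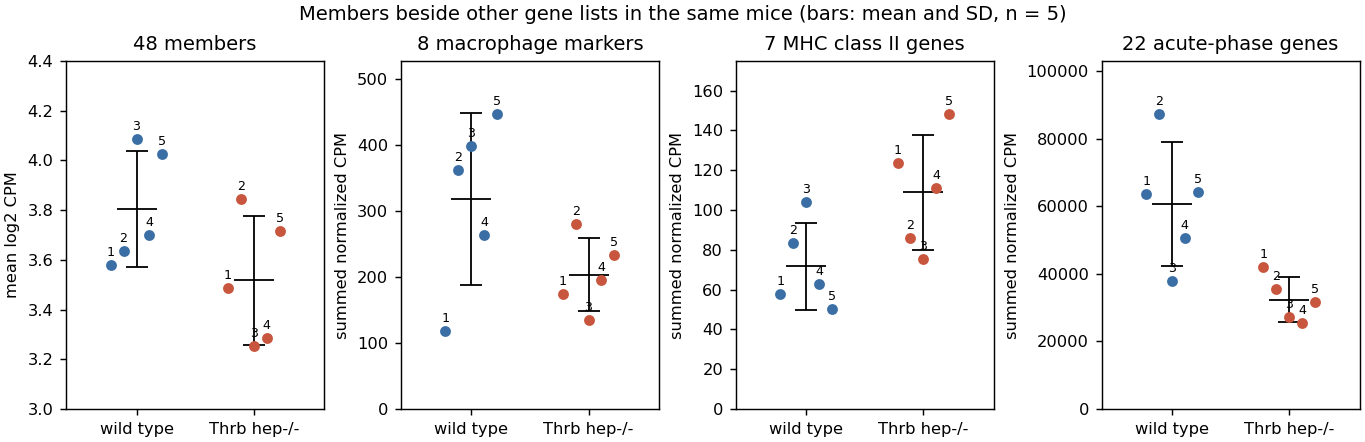
Mean log2 CPM of the 48 members (axis from 3) and summed normalized CPM of macrophage markers, MHC class II genes and acute-phase genes in each mouse (numbered points), with mean and SD of 5 mice as bars. WT mouse 1 and Thrb hep-/- mouse 3 are the lowest of their groups for the members and for the macrophage markers, whereas the class II genes are higher on average in Thrb hep-/- mice.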

How the data were processed

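Liver RNA of 5 WT and 5 Thrb hep-/- mice was analysed, grouped by the genotype in the labels. The authors deposited raw counts per gene. According to the submitters' processing notes and the methods, reads were aligned on mm10 (GRCm38) with HISAT2 2.2.1 and counted with HTSeq 0.9.1 in union mode, without strand and at a minimum alignment quality of 10, from a stranded library, and edgeR 3.36.0 was used. Reads mapping to several places or genes were not counted, and a gene and its antisense partner cannot be told apart. A deposited table of the authors' comparison, with fold changes and p-values, was not used.

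Counts were tested with edgeR 4.0.16 in R 4.3.3 (limma 3.58.1, DESeq2 1.42.0 as alternatives): a minimum of 1 CPM in 5 or more libraries, TMM factors, robust quasi-likelihood F-test of genotype, Benjamini-Hochberg adjustment over all 12234 genes, called below 0.15 as in the study's methods. Each standard error was derived as the size of the log2 fold change over the root of its F statistic. Total counts of 26477195 to 28590704 set the precision. The fits were tested on simulated data. Coordinates and shared exon bases come from a GENCODE annotation of GRCm38, promoters from RefSeq on GRCm38.p6. Replicates are separate mice.

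The 48 members and all gene lists were chosen with earlier results of these data known. Values of every mouse were given for called members and for the member with the smallest p in each role, and the others by changes, ranges and counts. Pathway genes were named when called, and other names serve as examples or ends of a range. Alternatives were DESeq2, limma-voom, other scalings and filters, no robust settings, a replicate block and leaving out each mouse.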

Additional observations from a re-analysis of the deposited data

Results flagged for a closer look

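In 118 groups of 5 mice (the 48 members and further measures in each genotype), 3 held a mouse whose distance to the nearest other mouse exceeded Dixon's 95% limit, where chance gives about 1 in 20 groups, or 5.9. Oas1a was at 3.83 CPM in Thrb hep-/- mouse 2, above the 1.39 to 2.09 CPM of the other 4 mice. Gbp4 was at 4.11 CPM in WT mouse 3, above the 1.64 to 2.17 CPM of the other 4. The total count of Thrb hep-/- mouse 2 was 27779196, below the 28441288 to 28590704 of the others of its group.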

How the results depend on the processing

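The median of the members was below 0 in all 18 alternative settings. With 4 members past 0.15 (all lower), DESeq2 gave 7 (adding Irf7, Psmb8 and Zbp1), limma-voom 5, no filter on low counts 5 (Oasl1 lost, adjusted p = 0.279) and the replicate block 3 (Parp14 lost, adjusted p = 0.175), and leaving out 1 mouse gave 1 to 9. Over all genes, 499 were called, 885 with DESeq2, 348 with the replicate block and 222 to 665 without 1 mouse. Of the members past 0.05, 1 with the settings used, DESeq2 gave 4, no filter 3, and limma-voom, RLE scaling and no robust settings 0 each, against 0 to 1 without 1 mouse. The pathway list had 5 calls, 13 with DESeq2, 3 with the replicate block and 1 to 9 without 1 mouse. Members with separate genotypes numbered 4 to 6 without 1 mouse. The causes of these shifts were not tested.

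Expression gave no sign that mice of the same number were pairs. Deviations of same-numbered mice correlated at 0.01, -0.20, -0.06, -0.06 and -0.02, and no mouse correlated best with its own number. Low correlations cannot exclude a pairing. The Irf1 log2 fold change turned in sign with limma-voom (0.00029) and the replicate block (0.00029), and the Iigp1 log2 fold change with upper-quartile scaling (-0.00161) and no filter (-0.00495). Without 1 mouse, signs turned in 12 members with small changes: Irf1 (-0.0744 to 0.0643), Iigp1 (-0.0899 to 0.0930), Gbp4 (-0.14 to 0.31), Usp18 (-0.30 to 0.11), Ifi27 (-0.0152 to 0.12), Rsad2 (-0.24 to 0.0572), Bst2 (-0.0826 to 0.0288), Trim25 (-0.0300 to 0.0649), Tgtp1 (-0.21 to 0.0321), Igtp (-0.19 to 0.0897), Tap1 (-0.14 to 0.0615) and Cxcl10 (-0.0471 to 0.26).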
